A study of Mus musculus with 10 samples.

Results

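The ribosomal protein genes were taken by symbol: every gene named Rps or Rpl with a number, with Rplp0, Rplp1, Rplp2 and Rpsa, and without the Rps6 kinases. The rule found 91 symbols in all. Of these, 77 stood among the 1596 distinct marker genes of the ascites clusters, 88 among the 21243 genes named in the tumor DNA bins, and 23 among the 1455 genes of the ascites copy number regions. Of the marker genes, 76 were standard ribosomal proteins and 1 was a paralog, Rpl22l1. The tumor bins held 75 standard ribosomal proteins, 7 paralogs (Rpl10l, Rpl22l1, Rpl36al, Rpl39l, Rpl3l, Rpl7l1 and Rps27l), 5 retrocopy or pseudogene symbols (Rpl36-ps4, Rpl36a-ps1, Rpl9-ps6, Rps12-ps3 and Rps27rt) and Rps19bp1, a protein that binds Rps19 and is no part of the ribosome. The rule uses no measured value of these genes, although it was drawn up with earlier results of these data known.

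The tumors arose in C57BL/6 mice after plasmids for Cas9, a guide RNA and Cre were electroporated into the epithelium of the fallopian tube, a model of high-grade serous ovarian carcinoma. DNA of 8 tumors, fixed in formalin and embedded in paraffin, was sequenced at low coverage. Ascites cells of 1 mouse were profiled by droplet single-cell RNA sequencing (Chromium 3' V2) after red blood cells had been removed, and they are labelled with the number that Lkb1-deleted tumor 1 also has. The sources used here do not state how doublets were treated, and the table of cluster markers holds no cells in which to look for them. By their labels 4 tumors were PAX8-positive (Lkb1-deleted tumors 1 and 4, Lkb1-intact tumors 2 and 3) and 4 were PAX8-negative (Lkb1-deleted tumors 2, 3 and 5, Lkb1-intact tumor 1). PAX8 is a transcription factor of the Müllerian epithelium, and Lkb1 is the kinase encoded by Stk11. The sources used here do not state the share of tumor cells in each DNA sample. The normal tissue listed among the labels (fallopian tube with uterus) was not analysed here.

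A ribosome joins a small subunit, which reads the mRNA, to a large subunit, which forms the peptide bond. Its proteins, named Rps in the small and Rpl in the large subunit, are each encoded as a rule by a single expressed gene, and their mRNAs are among the most abundant of any cell. Rplp0, Rplp1 and Rplp2 form the stalk of the large subunit that recruits elongation factors. Most of these mRNAs begin with a tract of pyrimidines at the cap, the TOP motif, through which mTORC1 signalling sets their translation. Mature lymphocytes are small cells in which ribosomal protein mRNAs take a large part of the transcripts. Heterozygous loss of single ribosomal protein genes underlies Diamond-Blackfan anemia in humans, and free Rpl5, Rpl11 and Rpl23 bind Mdm2, which links ribosome assembly to p53.

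The sequences around the annotated transcription start are shown for the members with the highest values in the 3 ascites clusters described below, because the start carries the TOP tract. Each holds 15 bases before the start and 15 from it, from RefSeq's promoters for GRCm38.p6, and the capitals mark the longest run of C and T.
Rps27, chr3:90213634-90213663, minus strand: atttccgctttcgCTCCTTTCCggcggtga
Rpl12, chr2:32961697-32961726, plus strand: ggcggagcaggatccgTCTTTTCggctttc
Rpl18, chr7:45718056-45718085, plus strand: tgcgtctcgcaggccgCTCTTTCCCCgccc
Rpl4, chr9:64173372-64173401, plus strand: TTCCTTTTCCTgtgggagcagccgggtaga
Rpl22l1, chr3:28805493-28805522, plus strand: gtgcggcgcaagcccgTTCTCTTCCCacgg
Rpl10a, chr17:28328456-28328485, plus strand: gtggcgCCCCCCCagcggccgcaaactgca
Rps2, chr17:24720048-24720077, plus strand: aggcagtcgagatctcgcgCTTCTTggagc
Rps20, also among the highest members of a cluster, is named only.

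The run of C and T was 11 bases long in Rpl4, 10 in Rpl18 and Rpl22l1, 9 in Rps27, 7 in Rpl12 and Rpl10a, and 6 in Rps2. Promoters of 57 standard members were matched, and 23 of them (40.4%) held a run of at least 8 bases in this window, against 11.7% of the 17492 protein coding genes in the same table. A C at the annotated start followed by at least 4 bases of C or T stood in 12 members (21.1%), against 2.17% of protein coding genes. Read on the coding strand of the same window, CTTTCC was present in 8 members (14%) and in 1.32% of protein coding genes. Over the whole promoter window of 300 bases and on both strands, CCGGAAG, a sequence bound by factors of the ETS family, was present in 23 members (40.4%) and 11.9% of protein coding genes. GGGCGG, the core of the Sp1 site, was present in 34 (59.6%) and 46.3%, and TATAAA in 5 (8.77%) and 13.3%. Annotated starts can lie several bases from the starts that cells use, so a tract displaced from the marked start is still counted only by its length. These matches describe letters and not binding or use.

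In the ascites cells ribosomal protein genes marked 3 of the 9 clusters, those the authors named B-cells (4), T-cells (6) and CAFs (8), where CAF stands for cancer-associated fibroblast. They filled 34.0% of the B-cell list (73 of 215 genes), 31.4% of the T-cell list (69 of 220) and 15.3% of the CAF list (55 of 360) in the authors' deposited table. None was listed for the clusters Tumor cells (2), Monocytes (1), Macrophages (0), Macrophages (3), Dividing cells (5) or Erythrocytes (7), whose lists together held 1140 genes in the authors' deposited table. The table holds only average log fold changes, read as natural logs, of a cluster against the other cells, and its lowest value was 0.50. A gene missing from a list may therefore be expressed there, and levels of the members per cluster are not known. All values come from 1 library, no test was made, and the cluster comparisons share their cells.

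**Figure D1:**
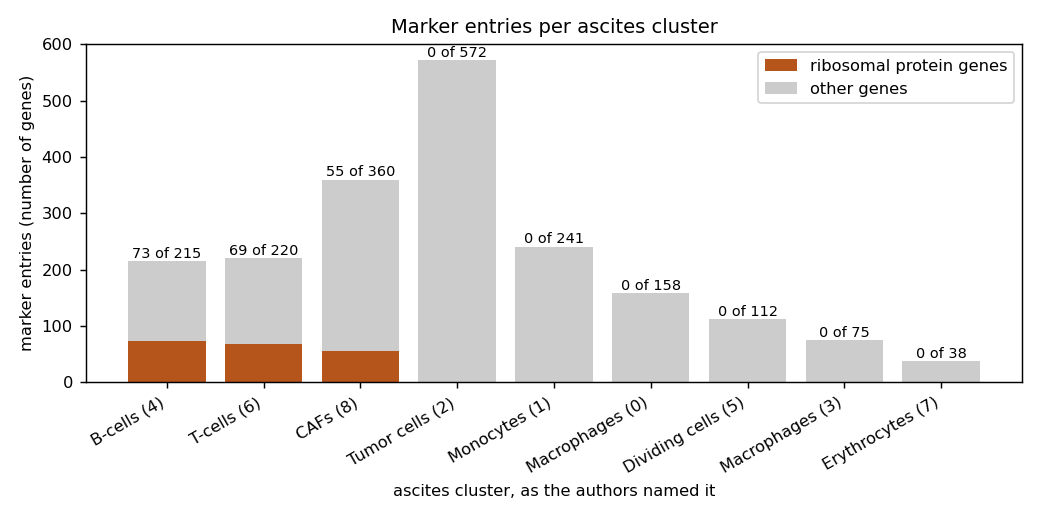
Number of marker genes listed for each of the 9 ascites clusters, with ribosomal protein genes as the dark part of each bar and all other genes as the light part. Members fill 73 of 215, 69 of 220 and 55 of 360 entries in B-cells, T-cells and CAFs and 0 entries in the other 6 clusters.

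Of all 1596 listed genes, 13.5% were listed for B-cells, 13.8% for T-cells and 22.6% for CAFs in the authors' deposited table. The Tumor cells list was the longest, with 572 genes or 35.8% of those listed, and held 0 members in the authors' deposited table. The other lists without members held 15.1% of listed genes in Monocytes, 9.9% in Macrophages (0), 4.7% in Macrophages (3), 7.02% in Dividing cells and 2.38% in Erythrocytes of the authors' deposited table. The cluster names were checked against markers: 8 of 8 B cell genes were listed in B-cells, 7 of 8 T cell genes in T-cells and 6 of 8 fibroblast genes in CAFs in the authors' deposited table. Tumor cells held 6 of 8 epithelial and 6 of 6 mesothelial genes together with 3 of 8 fibroblast genes in the authors' deposited table. No marker of B cells or T cells was listed for CAFs. Among the lists without members, Macrophages (0) held 6 of 7 macrophage genes and Erythrocytes 6 of 6 erythroid genes in the authors' deposited table. Markers went against the name Monocytes, whose list held 6 of 6 neutrophil genes in the authors' deposited table. Macrophages (3) held 0 of 7 macrophage genes in the authors' deposited table. Its comparison included the cells of Macrophages (0), and a gene missing from a list may still be expressed, so this does not decide the name. Dividing cells held 6 of 7 cycling genes and 3 of 6 genes of conventional dendritic cells in the authors' deposited table. Clusters are called here by the names the authors gave them.

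Members were listed at moderate sizes and led no list. Their median average log fold change was 0.89 in B-cells (a 2.43-fold difference), 0.87 in T-cells (2.39-fold) and 0.63 in CAFs (1.89-fold) in the authors' deposited table. The other genes of the same lists had medians of 0.89 in B-cells, 0.86 in T-cells and 0.72 in CAFs of the authors' deposited table. The first member stood at place 29 of the B-cell list, 33 of the T-cell list and 42 of the CAF list when genes of the authors' deposited table were ordered by value. Lists were led by cell type genes such as Igkc in B-cells and Ccl5 in T-cells, and the members spread through the rest of each list.

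Both subunits were represented. Small and large subunit genes numbered 30 and 43 in B-cells, 27 and 42 in T-cells, and 20 and 35 in CAFs of the authors' deposited table. The medians of the subunits were close, at 0.91 for small and 0.88 for large subunit genes in B-cells, 0.92 and 0.87 in T-cells, and 0.66 and 0.62 in CAFs of the authors' deposited table. Of the 77 standard ribosomal protein genes that RefSeq holds as protein coding, only Rps29 was listed in no cluster.

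Among small subunit genes, Rps27, a zinc-finger protein of that subunit, had the highest value of any member, 1.40 in B-cells (4.04-fold), and 1.01 in T-cells of the authors' deposited table, and was not listed for CAFs. Rps20 stood at 1.21 in B-cells, 1.0 in T-cells and 0.70 in CAFs of the authors' deposited table. Rps6, the subunit's target of S6 kinase, had 1.12 in B-cells, 1.09 in T-cells and 0.66 in CAFs of the authors' deposited table. These genes thus read higher in the lymphocyte clusters than in CAFs. Rps2 ran the other way, with 0.99 in CAFs, 0.85 in T-cells and 0.69 in B-cells of the authors' deposited table. Rpsa, also known as the laminin receptor, was at 1.01 in B-cells and 1.0 in T-cells, and at 0.84 in CAFs of the authors' deposited table.

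Among large subunit genes, Rpl12, which sits at the base of the stalk, led the members of T-cells at 1.26 (3.54-fold), with 1.22 in B-cells and 0.98 in CAFs of the authors' deposited table. Rpl18 stood at 1.19 in T-cells, 1.13 in B-cells and 0.59 in CAFs of the authors' deposited table. Rpl4 had 1.18 in T-cells, 1.02 in B-cells and 0.74 in CAFs of the authors' deposited table. In CAFs other members had the highest values among the members. Rpl22l1, the paralog of Rpl22, reached 1.31 in CAFs (3.71-fold), against 0.90 in T-cells and 0.61 in B-cells of the authors' deposited table. Rpl22 itself, an RNA-binding protein of the large subunit needed for T cell development in mice, was listed at 0.84 in B-cells and 0.73 in T-cells and was not listed for CAFs in the authors' deposited table. Rpl10a followed Rpl22l1 in CAFs at 1.05, with 0.94 in B-cells and 0.83 in T-cells of the authors' deposited table. Between the lymphocyte clusters, the paralog thus read higher in T-cells and Rpl22 higher in B-cells, within 1 library.

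The 3 stalk proteins were listed in all 3 clusters, as were 50 of the 77 listed members. Rplp0 had 1.05 in T-cells, 0.92 in CAFs and 0.81 in B-cells of the authors' deposited table. Rplp2 had 0.98 in T-cells, 0.90 in B-cells and 0.53 in CAFs, and Rplp1 had 0.86 in T-cells, 0.71 in B-cells and 0.61 in CAFs of the authors' deposited table. T-cells gave the highest value for each of them. Of the 9 genes tied to Diamond-Blackfan anemia, 9 were listed in B-cells, 7 in T-cells and 8 in CAFs of the authors' deposited table. Of all 77 listed members, 94.8% were in the B-cell list, 89.6% in the T-cell list and 71.4% in the CAF list. Rps19, the gene most often affected in that disease, stood at 0.97 in B-cells, 0.79 in T-cells and 0.61 in CAFs of the authors' deposited table. The Mdm2-binding proteins Rpl5, Rpl11 and Rpl23 were listed in all 3 clusters, with Rpl5 highest in T-cells at 0.98 and Rpl11 near 0.85 in both lymphocyte clusters of the authors' deposited table.

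**Figure D2:**
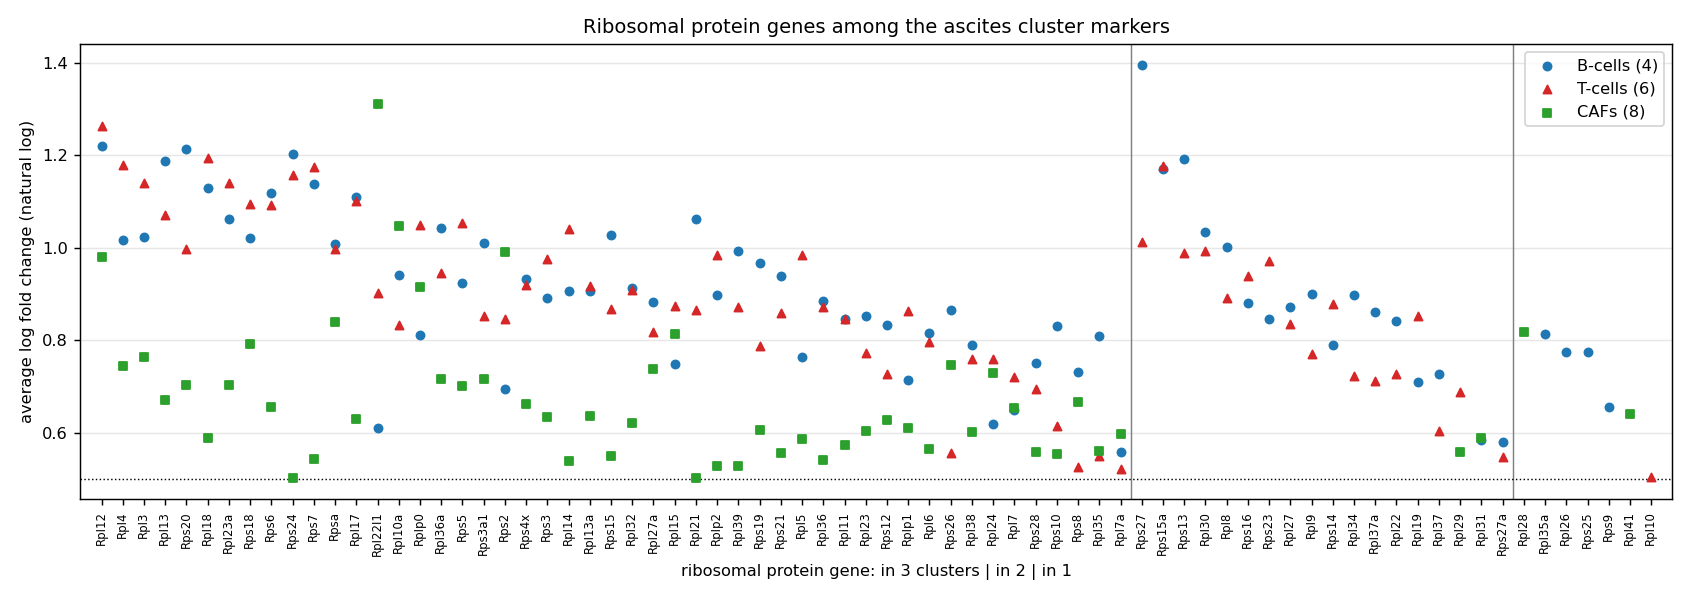
Average log fold change (natural log) of 74 of the 77 listed ribosomal protein genes in the clusters that list them, with circles for B-cells, triangles for T-cells and squares for CAFs, ordered by the number of clusters and then by mean value. The dotted line at 0.5 marks the lowest value the table lists, and 38 of the 49 plotted genes listed in all 3 clusters are lowest in CAFs.

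The genes that the 3 lists had in common were nearly all ribosomal protein genes. Of 57 genes listed for B-cells, T-cells and CAFs together, 50 (87.7%) were members in the authors' deposited table, and members made up 4.82% of all listed genes. The other 7 were the elongation factor genes Eef1a1, Eef1b2, Eef1g and Eef2, the nucleolar chaperone Npm1, the snoRNA host gene Gas5, whose RNA also carries a TOP tract, and Gm10260. By pairs, members were 67 of the 110 genes shared by B-cells and T-cells (60.9%), 52 of 61 shared by B-cells and CAFs (85.2%) and 51 of 61 shared by T-cells and CAFs (83.6%) in the authors' deposited table. The 114 genes shared by Tumor cells and CAFs held 0 members.

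Within the 50 common members the order of the clusters was uneven. The highest value fell in B-cells for 28 members, in T-cells for 18 and in CAFs for 4 (Rpl10a, Rpl22l1, Rpl7a and Rps2) in the authors' deposited table. The lowest value fell in CAFs for 39. A further 20 members were listed in exactly 2 clusters and 7 in 1, namely Rpl10 in T-cells, Rpl26, Rpl35a, Rps25 and Rps9 in B-cells, and Rpl28 and Rpl41 in CAFs. Requiring an average log fold change of at least 1 left 23 members in B-cells, 16 in T-cells and 2 in CAFs of the authors' deposited table. At 0.75 or more in each of the 3 clusters, 9 genes were common and 6 of them (66.7%) were members.

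Other genes of translation were described in the same way, from lists drawn up by function. Of 33 translation factors, 8 were listed for B-cells, 9 for T-cells, 8 for CAFs, 2 for Tumor cells and 1 for Monocytes in the authors' deposited table. Eef1g, a subunit of the elongation factor that reloads Eef1a1, stood at 1.04 in T-cells, 0.97 in B-cells and 0.96 in CAFs of the authors' deposited table. Among the other parts of the ribosome, Rack1, a scaffold on the small subunit, was listed at 0.63 in T-cells and 0.56 in CAFs of the authors' deposited table. Fau, which encodes a small subunit protein fused to a ubiquitin-like domain, was listed for B-cells at 0.70 in the authors' deposited table. These parts of the translation machinery were listed mainly for the clusters that list the members.

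Genes that build ribosomes were seldom listed. Of 36 ribosome biogenesis genes, 3 were listed in any cluster: Npm1 in 4 clusters, with 1.38 in CAFs and 0.53 in Dividing cells at the ends, Nhp2 in Tumor cells at 0.63 and Rrs1 in CAFs at 0.58 in the authors' deposited table. None of 15 RNA polymerase I genes, which transcribe ribosomal RNA, was listed. Of 78 mitochondrial ribosomal proteins, 2 were listed, Mrpl33 in Monocytes at 0.59 and Mrpl48 in Tumor cells at 0.70 in the authors' deposited table. The cytosolic ribosomal protein genes thus stood apart from these groups in how many were listed, a description for which no test was made.

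In the tumor DNA the value of a gene was the median log2 copy ratio of the bins that carry its symbol, and a value above 0.2 or below -0.2 counted as higher or lower. Mean depth over the bins ran from 1.25 to 2.24 per tumor, and between 7 and 50 bins of a tumor had a depth of 0 and were left out. Ribosomal protein genes are small, and their bins were short. The median bin length was 4178.5 bp for members, against 17176 bp for all genes, and 75 of 88 members were covered by 1 bin. Depth in the members' bins, relative to each tumor's median, had a median of 0.83, against 0.98 for all genes.

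Many members read low in most tumors. In at least 4 of 8 tumors 39 of 88 members (44.3%) lay below -0.2, against 19.2% of all genes, and 11 (12.5%) lay above 0.2, against 12.3% of all genes. By subunit the low members were 16 of 35 small and 23 of 53 large subunit symbols. Below -0.2 in all 8 tumors were 5 members (5.68%), namely Rps23, Rpl21, Rpl36a, Rplp0 and Rpl13a, against 0.457% of all genes. A value past 1 or below -1 in any tumor was reached by 36 members (40.9%), against 11.4% of all genes. Just inside and just outside the count of 4 tumors, 7 members were low in exactly 4 and 10 in exactly 3.

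Rps23, a protein of the decoding centre, had log2 ratios of -1.09, -1.34, -1.82 and -1.86 in PAX8-positive tumors and -0.96, -0.94, -1.58 and -0.28 in PAX8-negative tumors, and averaged -1.23 ± 0.53 (SD, n = 8). Rpl21, on chromosome 5, averaged -1.01 ± 0.19 (SD, n = 8), between -1.23 and -0.70 with a median of -1.02. Rplp0, the central stalk protein on the same chromosome, averaged -0.73 ± 0.32 (SD, n = 8). The values of both PAX8 groups overlapped for Rps23 and Rplp0, while each of these genes read low in every tumor. Rpl36a, on chromosome X, averaged -0.74 ± 0.46 (SD, n = 8), and Rpl13a, in a bin of 10874 bp, averaged -0.38 ± 0.10 (SD, n = 8). The bins of Rps23, Rpl21, Rplp0 and Rpl36a were between 1992 and 4260 bp long.

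The size of several low means rested on 1 tumor. Rpl10l, a testis paralog of Rpl10 in a bin of 1022 bp, averaged -1.35 ± 1.40 (SD, n = 7, with Lkb1-deleted tumor 1 missing because its bin had a depth of 0), and -0.89 without Lkb1-intact tumor 3. Rps12 averaged -0.75 ± 1.03 (SD, n = 8) and -0.45 without Lkb1-deleted tumor 4, where it stood at -2.89. Without the same tumor, Rpl41, which encodes the smallest ribosomal protein, averaged -0.33 rather than -0.68 ± 1.21 (SD, n = 8). The pseudogene symbol Rpl36-ps4 averaged -0.74 ± 1.22 (SD, n = 8) and -0.33 without Lkb1-deleted tumor 3. Each of these 4 symbols was covered by a single bin of 2092 bp or less.

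Among the members that read high, Rps18, which lies in the head of the small subunit, was above 0.2 in 7 tumors and averaged 0.40 ± 0.14 (SD, n = 8), in a bin of 15036 bp. Its lowest value was 0.19, in Lkb1-deleted tumor 2, and its highest 0.56, in Lkb1-deleted tumor 1. Rps2 was above 0.2 in 5 tumors and averaged 0.35 ± 0.31 (SD, n = 8), and Rpl23 was above 0.2 in 6 tumors and averaged 0.33 ± 0.28 (SD, n = 8). The neighbouring bins within 1 Mb of Rps18 and Rps2 were above 0.2 only in Lkb1-deleted tumors 1 and 4. In Lkb1-intact tumor 2 they were below -0.2. Those of Rpl23 were above 0.2 in no tumor and below -0.2 in Lkb1-deleted tumor 4. The count of 11 members above 0.2 in at least 4 tumors became 7 without Lkb1-intact tumor 3. The cut-off of 4 was kept for the remaining tumors, so this count could only stay or fall.

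**Figure D3:**
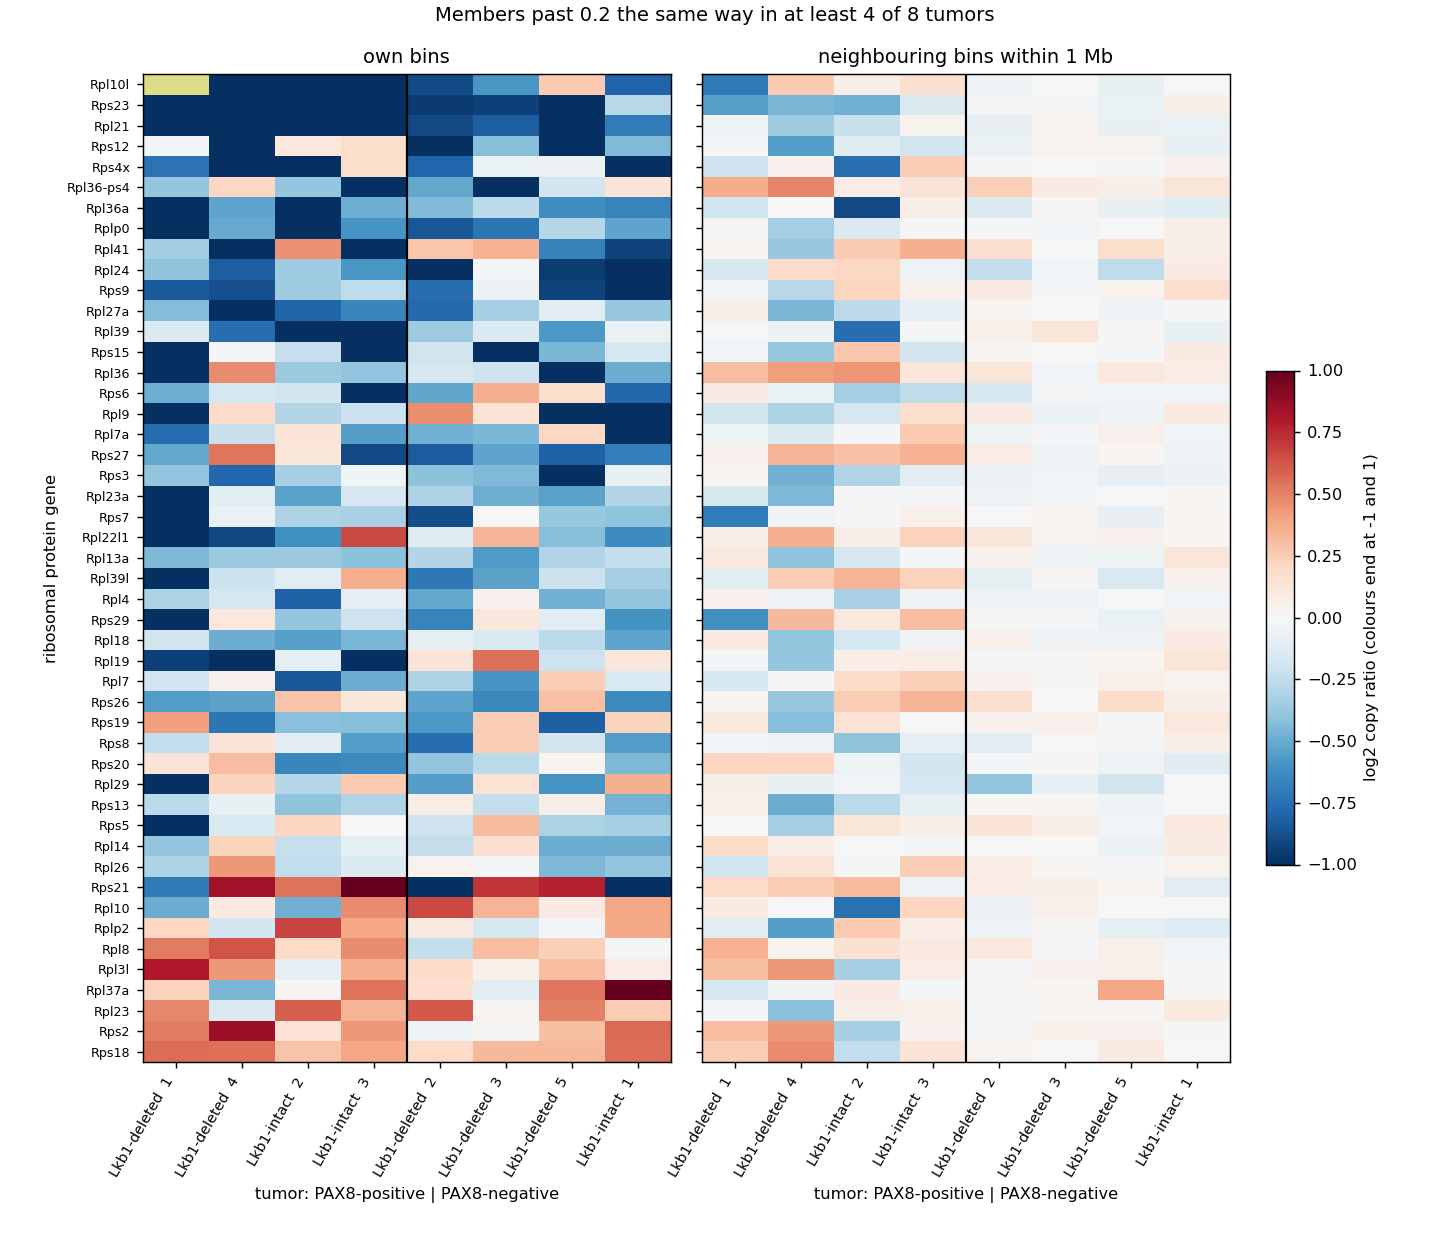
Log2 copy ratio of 48 of the 50 members that were either above 0.2 or below -0.2 in 4 tumors or more, in their own bins (left panel) and in the neighbouring bins within 1 Mb (right panel), with PAX8-positive tumors left of the line, red for higher, blue for lower, yellow for a missing value, and colours ending at -1 and 1. The own bins are mostly blue, down to -4.16 in Rpl10l, while the neighbouring bins are close to white in the PAX8-negative tumors.

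Over all tumors the neighbours of the members were less low than the members. The neighbouring bins, those within 1 Mb that carry other genes, had a median log2 ratio over members of -0.0036, against -0.022 for all genes. A member's own bins lay 0.15 below its neighbours at the median (difference -0.15), against -0.013 for all genes, and 66 of 88 members (75%) lay below their neighbours, against 54.2% of all genes. In the neighbouring bins 0 members were below -0.2 in at least 4 tumors, against 2.53% of all genes, and 2 members were above 0.2, Rpl37 and Rpl7l1, against 0.679% of all genes. No test was made of these differences, since the bins of nearby genes are not independent.

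Bin length moved with the low values, and its part in them was not tested. Among genes covered by 1 bin of up to 3000 bp, 61.3% of 31 members and 58.2% of all genes were below -0.2 in at least 4 tumors. Between 3000 and 5000 bp the shares were 45.8% of 24 members and 42.2% of all genes. Between 5000 and 10000 bp they were 63.6% of 11 members and 33.8% of all genes, and above 10000 bp 22.2% of 9 members and 16.7% of all genes. In the 2 shorter classes these shares were close between members and all genes of like bins. The median of own minus neighbouring bins was lower in members. It was -0.36 against -0.26 for all genes up to 3000 bp, and -0.20 against -0.09 between 3000 and 5000 bp. Between 5000 and 10000 bp it was -0.26 against -0.05, and above 10000 bp -0.02 against -0.01. Relative depth in bins of up to 3000 bp was 0.72 for members and 0.73 for all genes. The SD between tumors of own minus neighbouring bins had a median in that class of 0.51 for members and 0.64 for all genes. This SD, on the log2 scale, holds both measurement error and real differences between tumors that the neighbouring bins do not have.

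**Figure D4:**
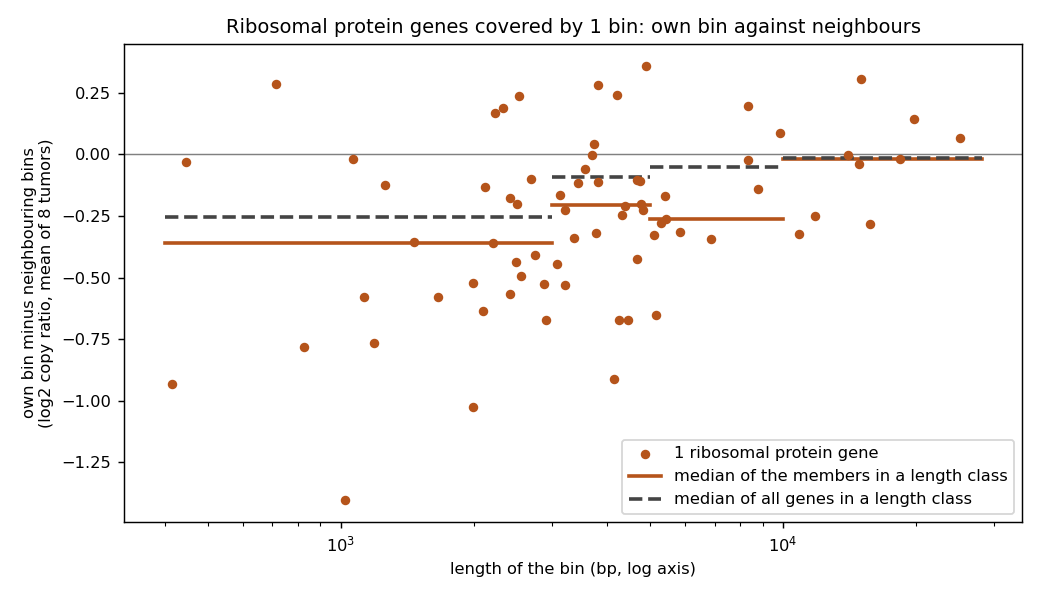
Log2 copy ratio of the own bin minus the neighbouring bins (mean of 8 tumors) against bin length on a log axis for 72 of the 75 members covered by 1 bin, with solid lines for the median of all 75 and broken lines for the median of all genes in 4 length classes. In bins of up to 3000 bp the medians are -0.36 for members and -0.26 for all genes. Between 5000 and 10000 bp they are -0.26 and -0.05, and above 10000 bp -0.02 and -0.01.

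Broad changes that carried members along were read from the neighbouring bins. In the order of the tumors given above, in PAX8-positive tumors the neighbours of 16, 24, 18 and 21 members were above 0.2, and in PAX8-negative tumors those of 3, 0, 3 and 0. The neighbours of 14, 27, 25 and 4 members were below -0.2 in PAX8-positive tumors, against 5, 0, 4 and 0 in PAX8-negative tumors. The groups did not overlap for gains and overlapped for losses. Of all genes, 15.9%, 24.0%, 15.7% and 17.0% were gained by this measure in PAX8-positive tumors, against 1.83%, 0.391%, 3.64% and 0.792% in PAX8-negative tumors. Losses held 24.5%, 28.0%, 30.4% and 10.7% of all genes in PAX8-positive tumors, against 7.03%, 0.429%, 4.47% and 1.96% in PAX8-negative tumors. For losses the shares of all genes did not overlap between the groups, whereas the counts of members did.

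In Lkb1-deleted tumor 1 the neighbours of all 4 members on chromosome 12 were low, from -0.70 at Rpl10l to -0.61 at Rps29, and those of both members on chromosome 18 (Rpl17 and Rps14) were low as well. In the same tumor the neighbours of all 5 members on chromosome 15 were high, up to 0.51 at Rpl37, and so were those of all 8 on chromosome 17. Lkb1-deleted tumor 4 had low neighbours at all 14 members of chromosome 7, from -0.55 to -0.28, and at all 5 of chromosome 5, and high ones at all 8 of chromosome 17 and all 4 of chromosome 3. Members on 1 chromosome can be carried by the same change and do not count as separate events. Lkb1-intact tumor 2 was low at all 4 members on chromosome X, with -0.90 at Rpl36a as the lowest. Lkb1-intact tumor 3 was high at 3 of 4 members on chromosomes 2 and 3 and at 3 of 5 on chromosome 15. In PAX8-negative tumors the neighbours of 2 of the 3 members on chromosome 16 were low in Lkb1-deleted tumors 2 and 5, at -0.24 and -0.25 for the lowest.

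Own and neighbouring bins gave the same call for part of the members. In PAX8-positive tumors 11 of 45, 16 of 31, 18 of 43 and 3 of 36 low members also had low neighbours, against 56.0%, 69.7%, 65.6% and 27.6% of all genes low in their own bins. In PAX8-negative tumors the members were 2 of 36, 0 of 30, 3 of 32 and 0 of 39, against 23.2%, 2.09%, 17.5% and 3.75% of all low genes. The member shares were below those of all low genes in each tumor, and no test of the difference was made. The genes low in their own bins were 34.2%, 31.9%, 34.3% and 23.9% of all genes in PAX8-positive tumors, against 21.3%, 12.4%, 16.5% and 23.2% in PAX8-negative tumors. High members with high neighbours numbered 11 of 21, 16 of 21, 7 of 16 and 7 of 26 in PAX8-positive tumors, against 1 of 13, 0 of 17, 1 of 17 and 0 of 14 in PAX8-negative tumors. Of all high genes, 50.2%, 65.6%, 45.7% and 44.7% had high neighbours in PAX8-positive tumors, against 6.94%, 1.49%, 23.4% and 1.62% in PAX8-negative tumors. High in their own bins were 21.4%, 26.5%, 22.8% and 25.4% of all genes in PAX8-positive tumors, against 13.9%, 12.4%, 12.0% and 18.4% in PAX8-negative tumors.

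Genes whose dose matters in disease were read in both measures. Rpl5 averaged 0.02 ± 0.11 (SD, n = 8) and Rpl11 -0.07 ± 0.22 (SD, n = 8). The neighbours of Rpl5, on chromosome 5, were below -0.2 in Lkb1-deleted tumor 4 and Lkb1-intact tumor 2. The neighbours of Rpl11, on chromosome 4, were low in 3 tumors: at -0.22 and -0.49 in tumors 2 and 5 of the Lkb1-deleted group, and at -0.38 in Lkb1-intact tumor 2. Rpl22, also on chromosome 4, averaged 0.01 ± 0.29 (SD, n = 8), with 0.47 in Lkb1-deleted tumor 1 as the highest and -0.36 in Lkb1-intact tumor 3 as the lowest value. The neighbours of Rpl22 were above 0.2 in Lkb1-deleted tumors 1 and 2, at 0.39 in tumor 2. Rps14, whose loss causes the anemia of a human chromosome deletion syndrome, was low in Lkb1-deleted tumor 1, at -0.72, ranged from -0.13 to 0.31 over the 7 others, and averaged -0.10 ± 0.30 (SD, n = 8). The neighbours of Rps14 stood at -0.58 in Lkb1-deleted tumor 1 and at 0.22 in Lkb1-intact tumor 2. Of the 9 Diamond-Blackfan genes, 3 (Rps19, Rps26 and Rps7) were below -0.2 in at least 4 tumors, where 44.3% of all members and 19.2% of all genes were. Rps19 averaged -0.26 ± 0.48 (SD, n = 8), with neighbours at 0.0011 on average, and Rps7 averaged -0.42 ± 0.35 (SD, n = 8), with neighbours at -0.09.

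Other translation genes were read beside the 44.3% of members and 19.2% of all genes that were low by this measure, with no test of the difference. Of 33 translation factors 6 (18.2%) were below -0.2 in at least 4 tumors, with a median bin length of 14770.5 bp. Of 36 ribosome biogenesis genes 6 (16.7%) were, and of 76 mitochondrial ribosomal proteins 17 (22.4%), with a median bin length of 11101.5 bp.

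No member differed between PAX8-positive and PAX8-negative tumors after adjustment over all genes. In limma across 21099 genes with a value in every tumor, 0 genes and 0 of 86 members had an adjusted p under 0.05. At an unadjusted p under 0.05 the limma test gave 6 members (6.98%), against 6.77% of all genes, and the exact permutation test over the 70 splits of the tumors gave 2, against 3.82% of all genes. Rpl19 stood at -0.93, -1.14, -0.09 and -1.09 in PAX8-positive tumors, against 0.13, 0.55, -0.21 and 0.11 in PAX8-negative tumors. The groups overlapped at Lkb1-intact tumor 2 and Lkb1-deleted tumor 5. The difference was -0.96 ± 0.25 (SE) with a limma adjusted p of 0.729, and that of its neighbours was -0.10. Rps16 was at -0.06, -1.04, -0.77 and -0.48 in PAX8-positive tumors, against 0.07, 0.42, 0.01 and 0.21 in PAX8-negative tumors, a difference of -0.76 ± 0.20 (SE) with the same limma adjusted p of 0.729. Its groups did not overlap, which held for 3.82% of all genes, and its neighbours differed by -0.11. Rpl34 and Rps3a1 differed by -0.43 and 0.60, and Rpl8 by 0.38, each with a limma adjusted p of 0.729. Over the 86 members the median difference was -0.01, against -0.03 for all genes.

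The comparison by Lkb1 also called no member. In limma 8 of 21099 genes (0.0379%) and 0 of 86 members had an adjusted p under 0.05. Unadjusted p under 0.05 was found for 9 members (10.5%) in limma, against 6.44% of all genes, and for 5 in the exact permutation test over 56 splits, against 5.17% of all genes. Rplp2 stood at 0.21, 0.09, -0.18, -0.19 and -0.03 in Lkb1-deleted tumors, against 0.38, 0.67 and 0.39 in Lkb1-intact tumors. The groups did not overlap, which held for 5.46% of all genes, and the difference was -0.50 ± 0.14 (SE) with a limma adjusted p of 0.508. Rps20 was at 0.13, -0.40, -0.27, 0.31 and 0.02 in Lkb1-deleted tumors, against -0.45, -0.65 and -0.64 in Lkb1-intact tumors, a difference of 0.54 ± 0.17 (SE) with a limma adjusted p of 0.595. Its groups did not overlap either. Rps24 and Rps3 differed by -0.39 and -0.48, and Rplp1 by -0.80, with limma adjusted p between 0.614 and 0.718. The neighbours of Rplp2 differed by -0.22 and those of Rps20 by 0.20. With 4 against 4 and 5 against 3 tumors the smallest exact p is 0.0286 for PAX8 and 0.0179 for Lkb1. The limma p-values set each difference against the spread between tumors within the groups, moderated over all genes. The permutation p-values rank its absolute size among the splits of these tumors.

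The ascites table of copy number regions named 22 members in a cell group called malignant_2, 10 in regions with a state above 3, read as gain, and 12 in regions below 3, read as loss. Gain regions held 45.5% of these members, against 60.9% of the 1415 genes of that group. Among the 10 were Rpl30 and Rpl3 on chromosome 15, Rps25 on chromosome 9, Rpl19 and Rpl23 on chromosome 11 and Rpl17 on chromosome 18. Among the 12 were Rpl7a and Rpl12 on chromosome 2, Rps19, Rpl13a and Rpl18 on chromosome 7, Rpsa and Rpl14 on chromosome 9, and Rps18 on chromosome 17. Another cell group, normal_5, had Rps28 and Rps18 in a gain region on chromosome 17. Rps18 thus stood in a loss region of malignant_2 and a gain region of normal_5. Of the 22 members in malignant_2 regions, 17 were markers of B-cells, T-cells or CAFs in the authors' deposited table, as were 77 of all 91 symbols. None could be a marker of Tumor cells, since that list held 0 members. A copy number state read from expression can move with the expression of a gene, and the part of either was not tested.

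In the DNA of Lkb1-deleted tumor 1, the neighbouring bins of the gain members had a median log2 ratio of 0.06, from -0.62 to 0.48 over 9 members with a value. Those of the 12 loss members had a median of 0.12, from -0.14 to 0.33. Rpl30 (0.48), Rps19bp1 (0.39), Rpl3 (0.38) and Rps25 (0.32) were high in both, and Rpl17 (-0.62) was in a gain region in the ascites and low in the tumor. Of the loss members 0 were below -0.2 and 2 were above 0.2, Rpl7l1 (0.33) and Rps18 (0.24). Members were matched between the tables by symbol.

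**Figure D5:**
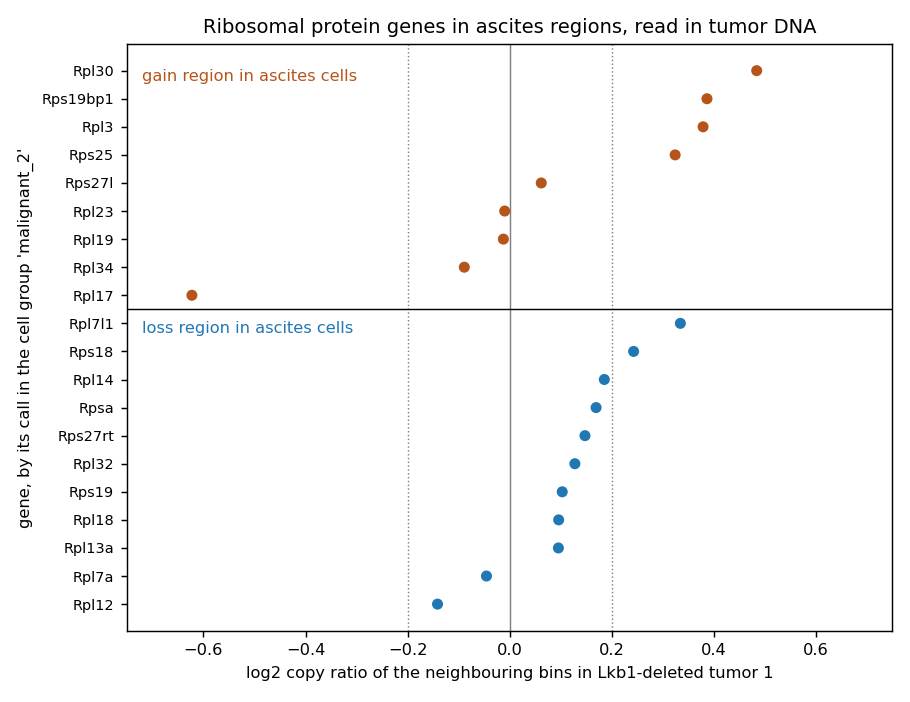
Log2 copy ratio of the neighbouring bins in Lkb1-deleted tumor 1 for 20 of the ribosomal protein genes in gain regions (upper part) and loss regions (lower part) of the ascites cell group malignant_2, with dotted lines at -0.2 and 0.2. The gain members spread from -0.62 to 0.48, with 4 above 0.2, and the 11 loss members plotted lie above -0.2.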

How the data were processed

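The authors deposited a log2 copy ratio and a read depth (a coverage signal) per bin for 8 tumors, per the file headers, and the sources used here do not state what the ratio was taken against. For the ascites of 1 mouse the authors deposited cluster markers as an average log fold change, read as a natural log, and copy number regions with a state score, where states above 3 were read as gain and below 3 as loss. BWA, Picard, Cell Ranger, Seurat 2.3.4 and the build GRCm38 (mm10) are named in the submitters' processing notes. The members and lists were chosen with earlier results of these data known.

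A gene's value was the median of its bins, with bins of depth 0 as missing, and its neighbours were bins within 1 Mb of other genes. Groups were compared with limma 3.58.1 (R 4.3.3) and, as an alternative, an exact two-sided permutation of the absolute difference, both with Benjamini-Hochberg adjustment over all genes. The fit was tested on simulated data. Only 2 members lacked a value in some tumor (Rpl10l and Rpl36a-ps1) and stayed out of the fit. Named genes were the 3 highest members per cluster, members above 0.2 or below -0.2 in 4 or more tumors (at most 15), members past 1 in either direction (at most 15), the 5 lowest limma p per comparison, disease genes, and examples from ascites regions and lists. Genes named beside these, such as Rps6, Rpsa, the stalk genes and Rpl13a, were chosen for their role or after their values were seen. Results for some genes are not reported here or plotted by name, and they stay in the counts. Python 3.11.15, pandas 2.3.3 and matplotlib 3.10.9 were used.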

Additional observations from a re-analysis of the deposited data

Results flagged for a closer look

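Among 46 named members and the counts of high and low members per tumor, 139 groups of 4 or 5 tumors were checked for a tumor that stands apart from the others of its group, and 8 were flagged. For groups taken without regard to their values, chance flags about 1 in 20. Some of these members were named for extreme values in the same tumors, and the groups share tumors. The count of 8 can therefore not be compared with that rate. In PAX8-positive tumors, Rps12 stood at -2.89 in Lkb1-deleted tumor 4, with the next tumor at -0.026, and Rps6 at -2.45 in Lkb1-intact tumor 3, with the next at -0.49. In Lkb1-deleted tumors, Rpl36-ps4 stood at -3.57 in tumor 3, with the next at -0.51, Rpl36a at -1.62 in tumor 1, with the next at -0.62, and Rps9 at -0.061 in tumor 3, above the next at -0.76. Rps27 stood at 0.54 in Lkb1-deleted tumor 4, with the next Lkb1-deleted tumor at -0.51. Rps26 stood at 0.29 in Lkb1-deleted tumor 5, apart from the other PAX8-negative and from the other Lkb1-deleted tumors, of which the next was at -0.53. All of these are log2 copy ratios of short bins, from 416 to 2904 bp.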

How the results depend on the processing

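The labels used here name no pairs of tumors, so no paired analysis was made. The tumor numbers within each group give the order of the samples only. No setting called a member: 0 members had an adjusted p under 0.05 by PAX8 or Lkb1 with the other label as a covariate, a trend on the number of bins, bins within 1 Mb, recentring, one row per entry of the gene column (added after seeing the data) or any tumor left out. Over all genes the PAX8 count of 0 ran from 0 to 1 with a tumor left out. The Lkb1 count of 8 became 2 with the covariate, 18 with the trend, 0 with bins within 1 Mb and 5 per entry, and ran from 0 to 18 with a tumor left out. Exact permutation called 0 genes, but its smallest p, 0.0286 for PAX8 and 0.0179 for Lkb1, is too large for calls after adjustment over 21099 genes, so it says nothing about stability.

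With bins within 1 Mb in place of own bins, member calls summed over the tumors fell to 82 high and 75 low, members high in at least 4 tumors to 2, and low ones to 0. The mean of 4 members turned positive, Rpl36-ps4 (0.19), Rpl41 (0.083), Rps9 (0.021) and Rpl36 (0.19), as did the PAX8 difference of Rpl34 (0.0064) and the Lkb1 differences of Rps3 (0.027) and Rplp1 (0.10). The count of 11 high members was 19 at a threshold of 0.1, 25 in at least 3 and 7 in at least 5 tumors, and 7 to 10 with a tumor left out. The 39 low members numbered 33 to 38 with a tumor left out. With a tumor left out the cut-off of 4 tumors was kept, so both counts could only stay or fall. In the ascites, a value of at least 0.75 left 11 members in CAFs and made members 66.7% of the common genes, and a value of at least 1 left 23 in B-cells, 16 in T-cells and 2 in CAFs. These results aside, the direction held under each setting run for the members checked in this way. Those were the members with the lowest means among the ones low in at least 4 tumors, and the members with the lowest limma p per comparison. The direction of the other named members, among them those that read high, was not checked under these settings. Short bins at a depth near 1 limit the values of single members.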

Other observations

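The gene positions in the ascites table of copy number regions do not match the gene symbols. Of 1511 entries 1495 had a symbol in RefSeq GRCm38, all on the chromosome listed, and 73 overlapped the RefSeq position. At the median of the signed differences, the RefSeq start lay 91674 bp after the listed start. Of 24 member entries 1 overlapped. Members were therefore matched by symbol, and the sources used here do not state whether a call belongs to the symbol or to the listed position.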
